A study of Oryza sativa with 4 samples.

Results

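Spikelets of rice plants silenced for OsCPK21 were compared between anther stage 12 and anther stage 9, which gives the course of spikelet maturation in the silenced plants. The comparison uses 2 of the 4 arrays of the study, chosen by their titles, and all 57194 probe sets that are not controls. The groups are spikelets of OsCPK21-RNAi plants at stage 12 and at stage 9, and spikelets of ZH11 (Zhonghua 11, a japonica rice cultivar) at the same stages, with 1 array in each. All plants have the ZH11 genetic background, grew untreated under field conditions, and the labels name 3 RNAi lines without saying whether their RNA was pooled. The promoter that drives the RNAi construct is not stated in the labels. A whole spikelet holds the anthers, the pistil, the lodicules and the green lemma and palea, so its RNA is a mixture of many cell types. In such bulk samples, fewer cells of a type and less RNA per cell cannot be told apart.

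In rice anthers, the tapetum is the innermost wall layer, which feeds the young microspores and supplies material for the pollen wall before it degenerates. Around stage 9 free microspores lie in the anther and the tapetum is active, and by stage 12 pollen is mature or nearly so. Mature pollen stores starch, builds the actin and wall-loosening proteins of tube growth, and depends on calcium signals. OsCPK21 is a calcium-dependent protein kinase, an enzyme that binds calcium and phosphorylates other proteins. Over the same interval the lemma and palea stop dividing and elongating, green, and harden their walls.

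The titles and the genotype field of the labels disagree on all 4 arrays, and the arrays are called here by their titles. OsCPK21 (LOC4346187) had a signal of 17.6 on the RNAi stage 12 array and 206 on the RNAi stage 9 array, against 2719 on the ZH11 stage 12 array and 1940 on the ZH11 stage 9 array. The targeted gene was therefore low on the arrays titled RNAi. A second set of probes was brighter on the arrays titled ZH11, and whether it marks plants that carry the construct was not tested. The array carries 64 probe sets for reporter and marker genes that are foreign to rice and serve in transgenic plants, and 2 of them were bright on every array. The brighter read 2923 on RNAi stage 12 and 841 on RNAi stage 9, against 7544 on ZH11 stage 12 and 10742 on ZH11 stage 9. The other read 1318 and 380 on the same RNAi arrays, against 5406 and 5523 on the ZH11 arrays. None of the other 62 exceeded 105 on any array. The direction of stage 12 over stage 9 within a genotype is the same whichever field is right, but which pair of arrays is the silenced one depends on it.

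A probe set's signal is its deposited intensity, and signals under a floor of 71 were raised to 71 before ratios were taken. A gene is called higher or lower where its stage 12 signal differs from its stage 9 signal by 2-fold or more and the brighter array is above the floor. With 1 array a group there is no replicate check, so no difference was tested, and "higher" and "lower" describe these arrays. Among genes read by several probe sets above the floor, the log2 stage ratios of a gene's probe sets had an SD of 0.69 in RNAi (2379 genes), and 22 of the 949 such genes with any call were called in both directions. A gene read by several probe sets is given by its brightest, and where the mean log2 ratio over its probe sets moved the value by more than 1.5-fold, that mean stands beside it as "mean over probe sets". Where an array did not exceed the floor, the fold is a bound and reads "at least".

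The RNA and scaling of these arrays differed in measurable ways. Median signals were 75.3 on RNAi stage 12 and 81.7 on RNAi stage 9, against 83.8 and 85.05 on the ZH11 arrays of the same stages. The ratio of 3′ to 5′ actin probe sets, which grows as RNA or labelled product shortens, was 8.53 on RNAi stage 12 and 4.20 on RNAi stage 9, and 10.3 and 3.89 in ZH11. The 24 probe sets of bacterial poly-A RNAs, which are added to a sample before labelling, had a mean log2 ratio of 1.04 ± 0.12 (SD over probe sets) for RNAi stage 12 over stage 9, and -0.11 ± 0.10 for ZH11. All 24 were higher on RNAi stage 12. The 18 probe sets of hybridization controls, added after labelling, gave 0.31 ± 0.062 in RNAi and 0.12 ± 0.061 in ZH11. The part of these differences in the results was not tested, and all values below use the deposited scale unless another is named.

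**Figure D1:**
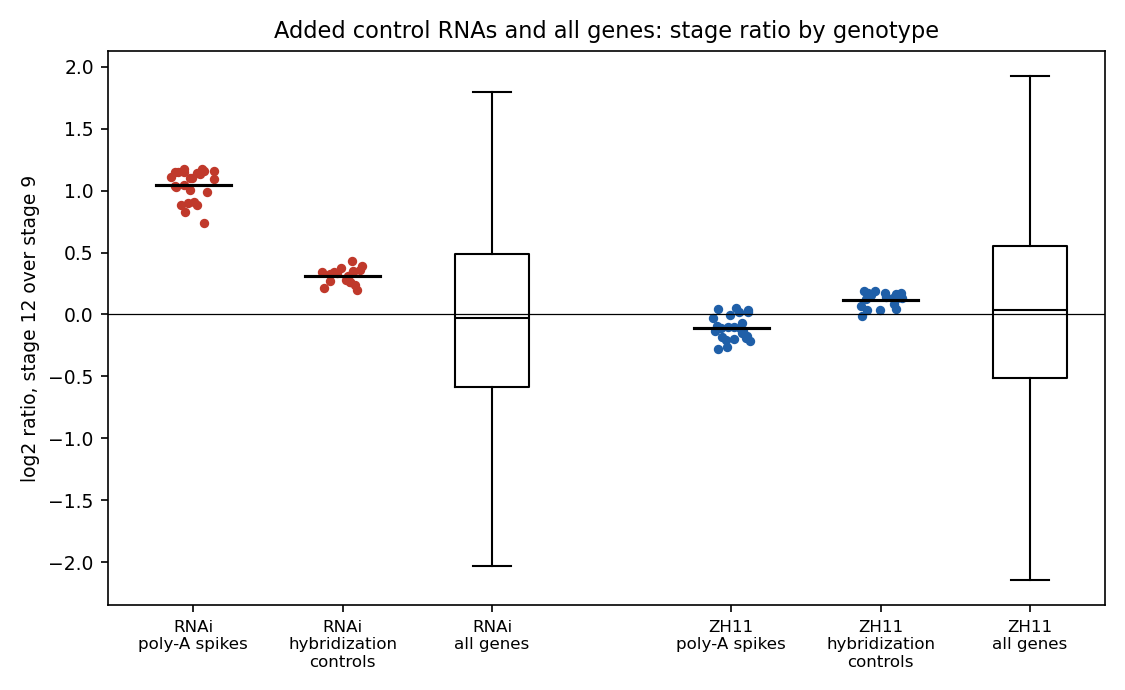
Log2 ratio of stage 12 over stage 9 for 24 poly-A spike and 18 hybridization control probe sets (points, with the mean as a bar) and for all genes above the floor on both arrays (box from the lower to the upper quartile, whiskers at the 5th and 95th percentile), in RNAi on the left and ZH11 on the right. The poly-A spikes averaged 1.04 in RNAi and -0.11 in ZH11, while the median gene was at -0.029 and 0.039.

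RNAi spikelets had 15306 of 17905 genes above the floor at stage 12, against 14984 at stage 9, and 16060 exceeded it on at least 1 of the arrays. Of these, 2401 were higher at stage 12 and 2535 were lower, together 30.7%, with 15% higher and 15.8% lower. Changes of 4-fold or more were seen for 930 higher and 958 lower genes, and changes of 16-fold or more for 149 and 144. Over probe sets, with or without a gene name, 3800 were higher and 4508 lower, 24.9% of the 33340 above the floor. The share of called genes that were higher was 48.6% on the deposited scale, 54.7% with arrays scaled to a common median, 33.7% when scaled to the hybridization controls and 10.9% when scaled to the poly-A spikes. That last scaling lowered the median log2 ratio by 1.03, and the counts became 987 higher and 8083 lower. Directions of single genes below are therefore relative to the bulk of genes on the array. Counts of list members below are to be read beside the shares over all genes, 15% higher and 15.8% lower. Of the 94 genes named by rule, the 68 called ones kept their sign under each scaling. A called gene is 2-fold or more from no change, so shifts of this size could hardly turn its sign. Of the 68 calls, 3 were lost when scaled to the poly-A spikes. Of the 26 other genes, 7 changed sign when scaled to the poly-A spikes, 3 when scaled to the hybridization controls and 1 with a common median. Scaled to the poly-A spikes, the calls of MADS3, CESA7, CHIA1D, CHI, DPE2, CPK7, AT4 and ERG1, all named below, were lost.

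**Figure D2:**
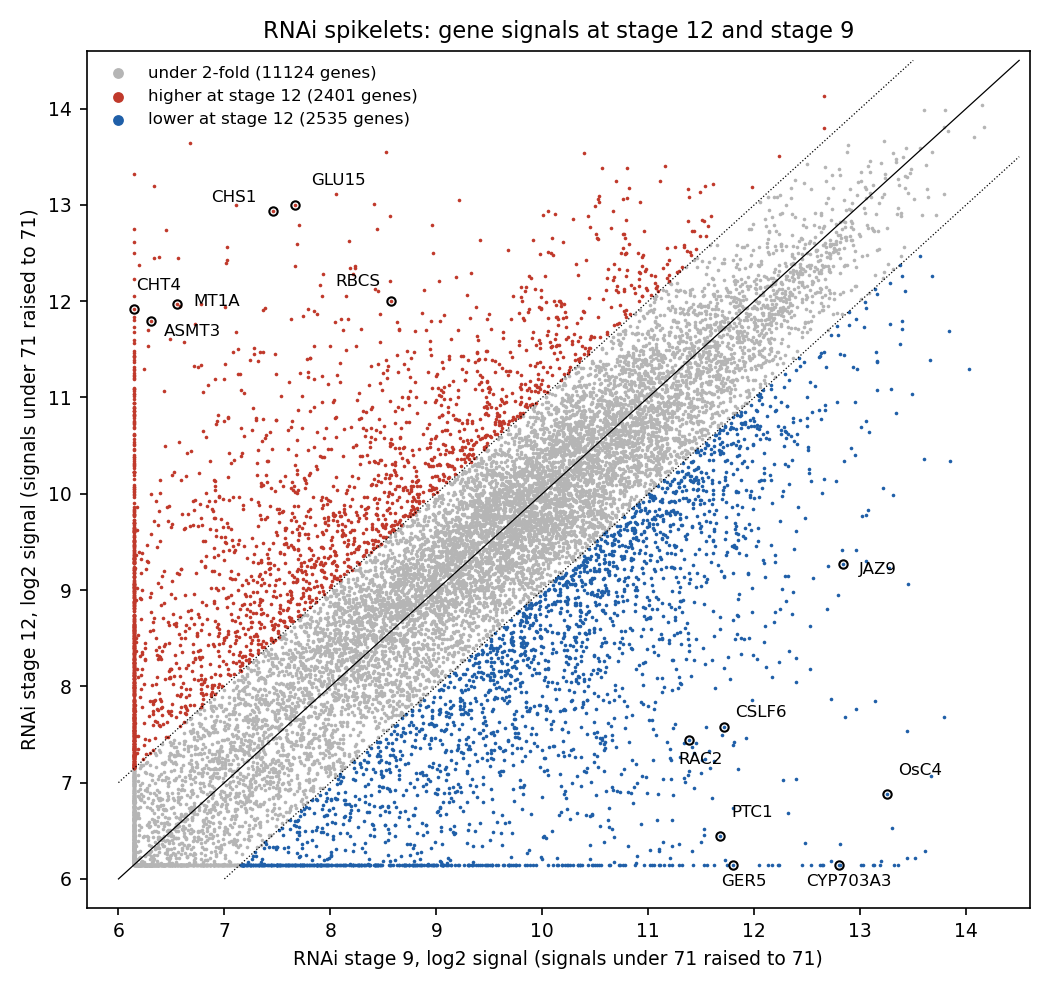
Log2 signal of each gene in RNAi spikelets at stage 9 (horizontal) and stage 12 (vertical), for the 16060 genes measured in RNAi; dotted lines mark 2-fold. The 2401 genes in red were higher at stage 12 and the 2535 in blue lower, and points on the left and bottom edges were at or below the floor on one array.

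Among the steepest declines of named genes were those of anther genes. CYP703A3, a cytochrome P450 that hydroxylates fatty acids for the pollen wall, had a signal of 58.3 at stage 12, below the floor, against 7113 at stage 9, at least 100-fold lower. OsC4, which belongs to the lipid transfer proteins made in the tapetum, had 118 at stage 12 and 9776 at stage 9, 82.9-fold lower. PTC1, a PHD-finger regulator of tapetal death and pollen wall formation, had 87.1 and 3282 at those stages, 37.7-fold lower. These genes were bright on the stage 9 array and stood at or near the floor at stage 12. The bHLH factors of the tapetum declined with them. TDR had 414 at stage 12 and 3571 at stage 9, BHLH142 (also called TIP2) had 172 and 1539, and EAT1 had 50.7 and 505. AP25, an aspartic protease that EAT1 activates, was 10.4-fold lower. In all, 7 of the 13 measured genes of the tapetum and pollen wall list were lower and 1 was higher. Their median log2 ratio was -2.83, beside -0.0044 over all genes.

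OsC6 and RAFTIN1, also members of the tapetum list, were not lower in RNAi. OsC6, a lipid transfer protein needed for the pollen wall, was below the floor at both RNAi stages (37.8 at stage 12 and 45.4 at stage 9), so that no ratio is given, while in ZH11 it had 162 at stage 12 and 8767 at stage 9. RAFTIN1, a BURP-domain protein of the tapetum that is carried to the pollen surface, had 2149 at RNAi stage 12 and 1275 at stage 9, against 199 at ZH11 stage 12 and 3414 at ZH11 stage 9. In RNAi the RAFTIN1 signal was 1.69-fold higher at stage 12, which is under 2-fold and not called, while ZH11 held 17.1-fold less at stage 12. The RNAi log2 ratio of RAFTIN1, 0.75, was smaller than the mean of 1.04 for the poly-A spikes, so its direction depends on the scaling. MADS3, a stamen and carpel identity factor that stands in the list, was the higher member, at 1059 and 434.

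Markers of other cell types were read on the same arrays. The 9 tapetum markers on the array summed to 3370 at RNAi stage 12 and 29354 at stage 9, and 3 were at or below the floor at stage 12. The 7 markers of late pollen found on the array summed to 480 at RNAi stage 12 and 412 at stage 9, against 50537 at ZH11 stage 12 and 395 at ZH11 stage 9. On RNAi stage 12, 4 of the 7 were at or below the floor, namely EXPB9, EXPB10, ADF6 and ADF9, and the highest was GBSS1, the starch synthase of the waxy locus, at 131. No late pollen marker was called higher at RNAi stage 12 on the deposited scale, and all 7 were in ZH11. EXPB9, EXPB10, ADF1, ADF6 and ADF9 are also among the named genes with the lowest RNAi minus ZH11 stage ratio. Members were chosen with earlier results of these data known, so these markers are no independent measure of pollen content. GBSS1 reached a log2 ratio of 1.002 with a common median and 1.06 with a pseudocount, just past the threshold. The 4 meiocyte markers summed to 1519 at RNAi stage 12 and 2451 at stage 9, with MEL1, an Argonaute protein of germ cells, the called one, 2.11-fold lower (log2 -0.96 with a common median, which is not called). The 7 floral organ MADS-box markers, which should be present throughout, were above the floor on all arrays with no call in either genotype on the deposited scale. With a common median, MADS14 and MADS2 passed the threshold in RNAi, at 1.05 and 1.02.

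**Figure D3:**
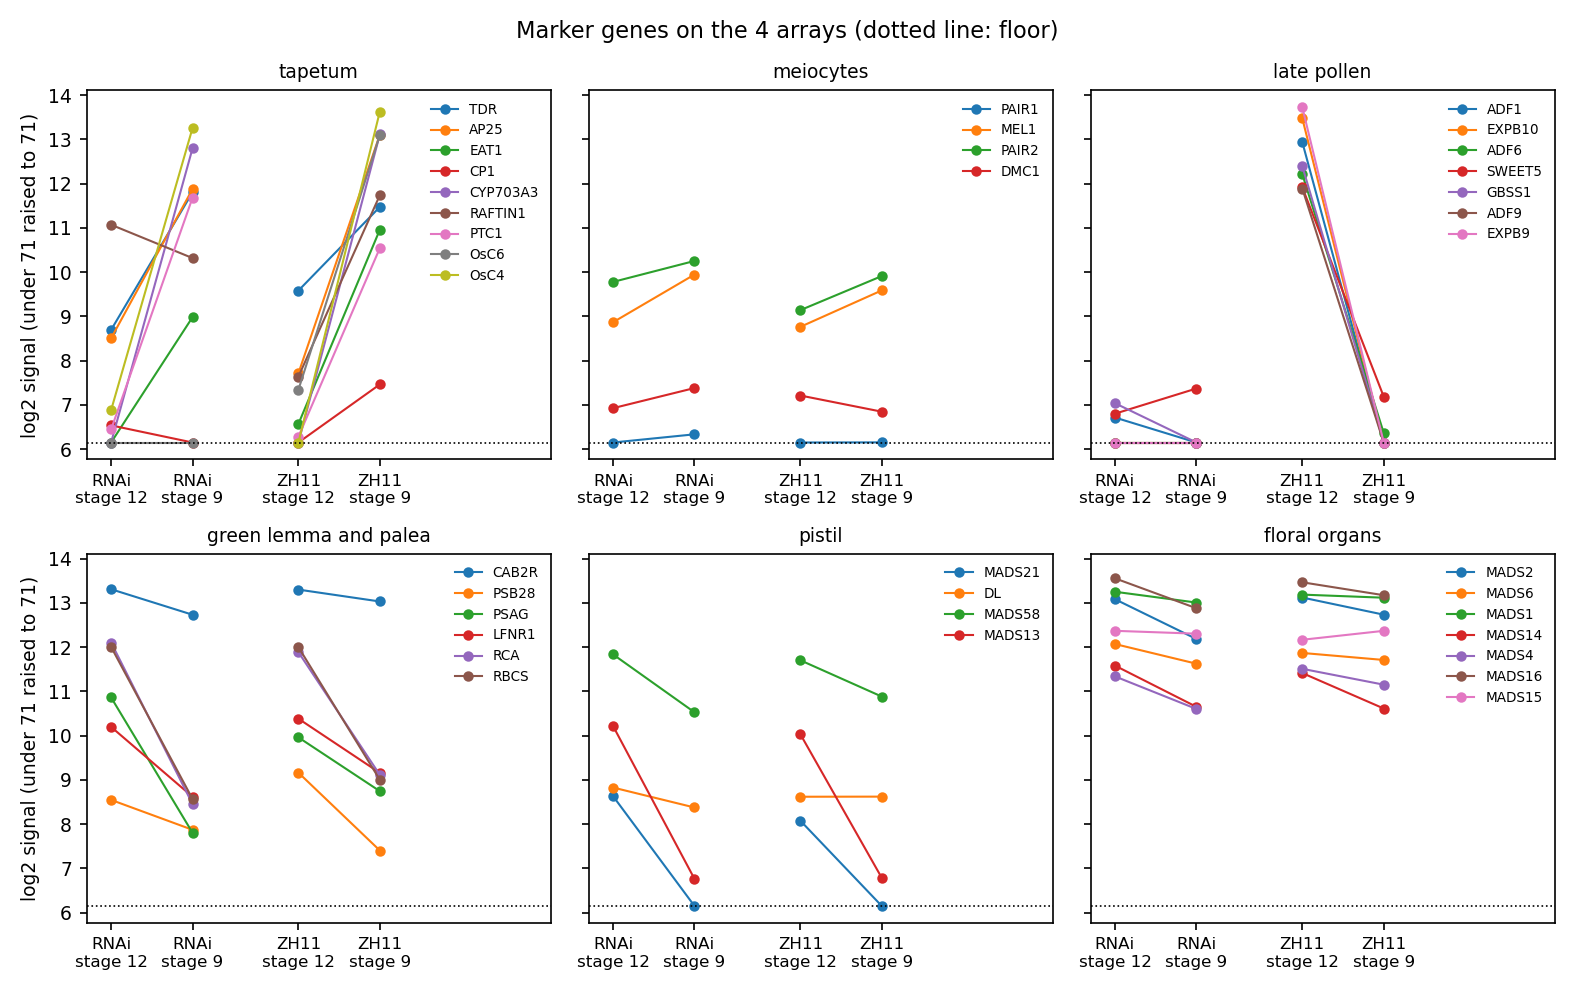
Log2 signal of each marker gene on the RNAi stage 12, RNAi stage 9, ZH11 stage 12 and ZH11 stage 9 arrays (left to right, lines join the stages of a genotype), in 6 panels by cell type; the dotted line is the floor. Tapetum markers were mostly low at stage 12 in both genotypes, late pollen markers were bright on the ZH11 stage 12 array alone, and 4 of 6 green tissue and 3 of 4 pistil markers were called higher at stage 12 in RNAi.

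Among genes of cell division, many were lower at stage 12 and the rest mostly within 2-fold. Of 67 measured cyclin, CDK and DNA replication genes, 27 were lower, 39 were within 2-fold and 1 was higher (median log2 ratio -0.53). MCM2 to MCM7, the subunits of the helicase that opens replication origins, were all lower, by log2 values of -1.90 to -2.30, the last a bound since MCM7 was below the floor at stage 12. MCM3 had 76.3 at stage 12 and 374 at stage 9. CYCP2-1, a P-type cyclin, was 16.4-fold lower, at 166 and 2723. The higher gene was SMR1, whose plant family inhibits cyclin-dependent kinases, with 2550 at stage 12 and 108 at stage 9, 23.7-fold higher. Of 43 tubulin and kinesin genes, 24 were lower, 18 within 2-fold and 1 higher. KIN14F, a kinesin motor, had 98.1 at stage 12 and 1570 at stage 9, and TUB1, a beta-tubulin, had 3551 at stage 12 and 10770 at stage 9, but a log2 ratio of -0.69 as the mean over probe sets, which is not called. Of 11 measured meiosis genes 3 were lower, among them SPO11-4 of the family that makes meiotic DNA breaks, 2.55-fold lower. Over all genes 15.8% were lower and 15% higher. Scaled to the poly-A spikes, 8 of 12 meiosis genes were lower.

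Small GTPases of the RAC/ROP family, molecular switches of polar growth, followed the same course. Of the 8 measured genes of the RAC/ROP and NADPH oxidase list, 6 were lower and none was higher. RAC2 had 174 at stage 12 and 2675 at stage 9, 15.4-fold lower (4.90-fold as the mean over probe sets). RAC4 had 770 and 3635, and RAC7 had 183 and 732. RAC6, also called RACB, had 1534 at RNAi stage 12 and 5047 at RNAi stage 9, but 6292 and 5869 at those stages in ZH11, where it was not called.

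Several regulators of organ growth are among the named genes, most of them chosen for the size of their decline. SPL16, a squamosa-promoter factor that widens grains, had 132 at stage 12 and 2253 at stage 9, 17.1-fold lower. YAB4, a YABBY factor, was 12.9-fold lower, and PCF5, a TCP factor, was 19.0-fold lower, at 73.8 and 1400. JAG, a zinc-finger factor of floral organ shape, had 52.9 at stage 12, against 1292 at stage 9, at least 18.2-fold lower. MOF1, a MYB repressor that fixes floret number, was at least 12.2-fold lower. TDL1B, related to the secreted ligand of the receptor kinase MSP1, was 16.4-fold lower (4.81-fold as the mean over probe sets), and MSP1, which limits the number of cells that enter meiosis, had 770 and 1861. Of 42 measured homeobox genes 18 were lower and 7 higher. Of 7 measured ROC genes, epidermal homeodomain-leucine zipper factors, 5 were lower, ROC3 by at least 8.90-fold. HOX24, a homeodomain-leucine zipper gene, opposed them with 2543 at stage 12 and 69.6 at stage 9, at least 35.8-fold higher.

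Over the list of cellulose synthase, Csl and COBRA-like genes, 15 of 39 were lower, 19 within 2-fold and 5 higher. Among the cellulose synthases known from growing primary walls, CESA1 had 2732 at stage 12 and 6269 at stage 9, CESA5 had 706 and 4578, and CESA8 had 1727 and 4087. Among those known from secondary walls, CESA4 had 4207 and 1016, CESA7 had 1803 and 532, and CESA9 had 1212 and 206. BC1, a COBRA-like protein of secondary walls whose loss makes culms brittle, was 4.38-fold higher. In the mixed-linkage glucan family, CSLF6 was 17.6-fold lower on its brightest probe set (191 and 3362) but not called as the mean over probe sets (log2 -0.60), while CSLF2 had 2094 at stage 12 and 26.5 at stage 9, at least 29.5-fold higher. Among alpha-expansins, which loosen walls in acid growth, EXPA16, EXPA7, EXPA5 and EXPA6 were lower, EXPA16 by 30.3-fold, and EXPA1 was 8.20-fold higher. The count was 4 lower and 1 higher of 8 measured. EXLA1, an expansin-like gene, was 18.2-fold higher.

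**Figure D4:**
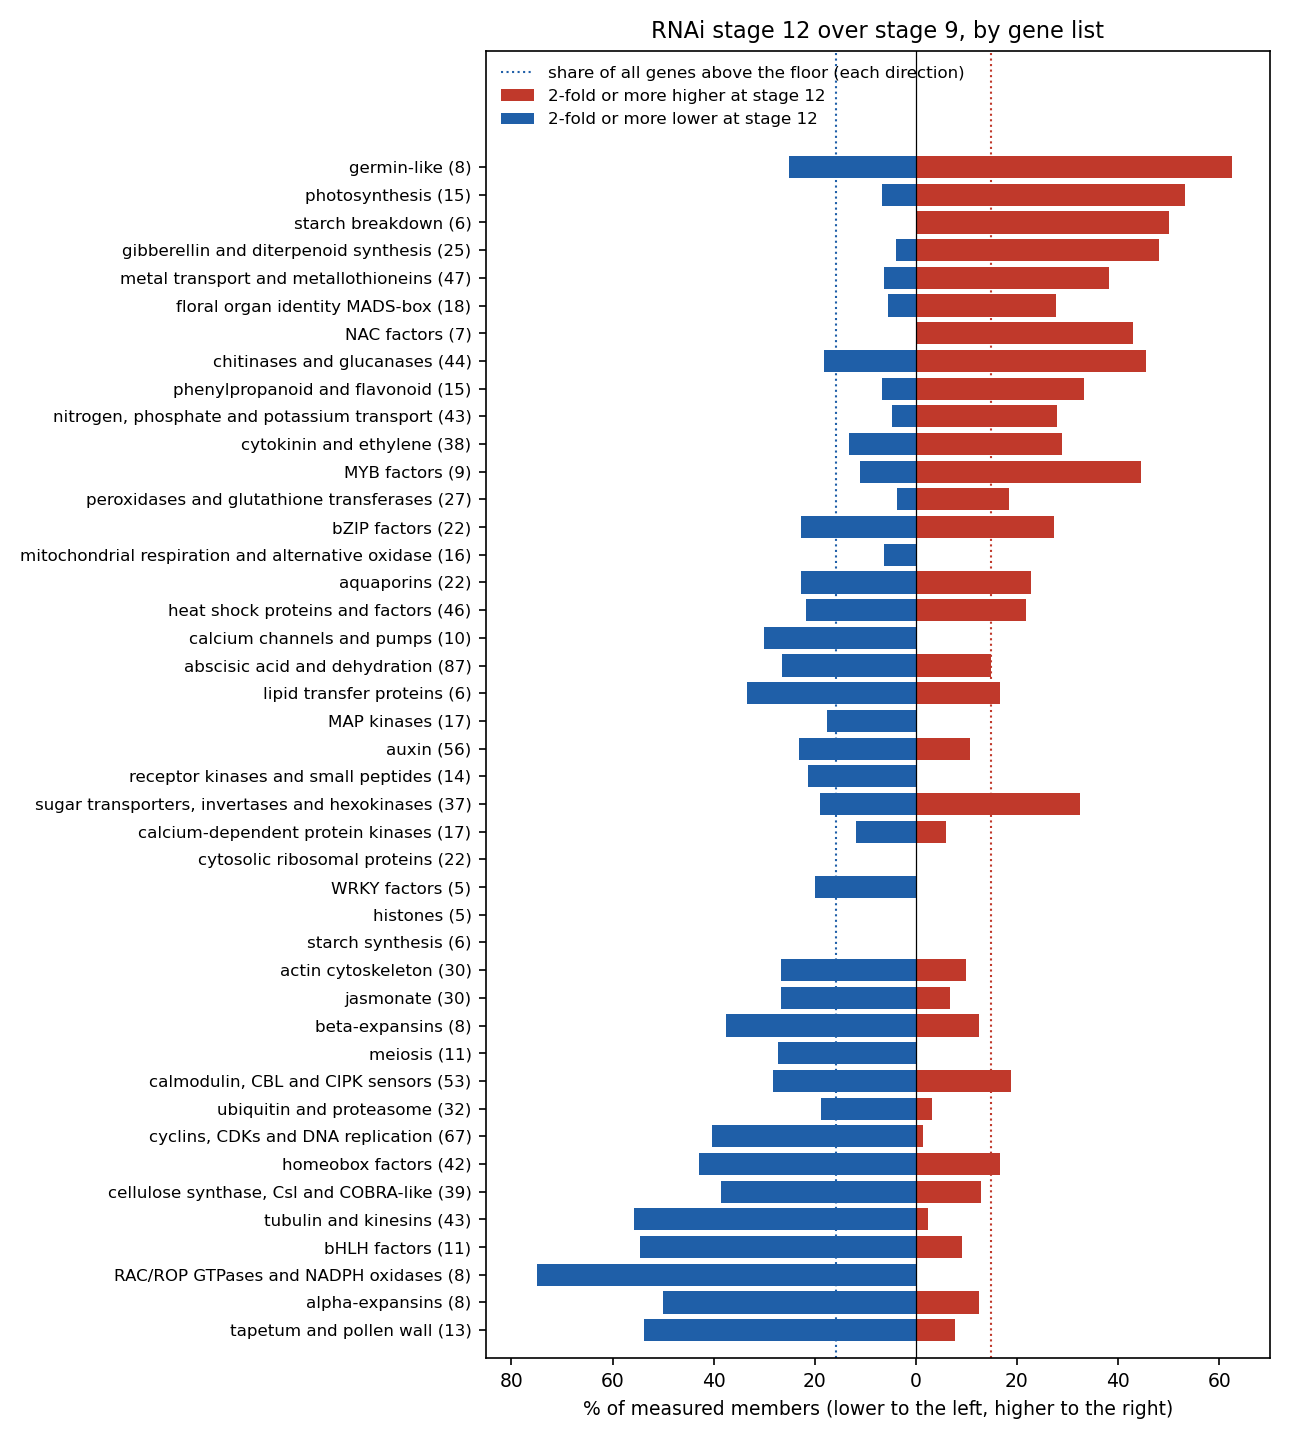
Share of measured members (above the floor on either RNAi array, number in brackets) that were 2-fold or more higher (right) or lower (left) at RNAi stage 12, for the gene lists with at least 5 measured members, sorted by median log2 ratio; dotted lines give the shares over all genes, 15% higher and 15.8% lower. Of 44 lists 15 had more higher than lower members and 24 more lower than higher; scaled to the poly-A spikes, 4 had more higher members.

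Of the 6 markers of the green lemma and palea, 4 were called higher at RNAi stage 12, and CAB2R and PSB28 were within 2-fold. RBCS, the small subunit of the carbon-fixing enzyme Rubisco, had 4107 at stage 12 and 379 at stage 9, 10.8-fold higher (6.35-fold as the mean over probe sets and 4.47-fold without cross-matching ones). RCA, Rubisco activase, had 4398 and 351, and PSAG, a subunit of photosystem I, had 1861 and 223 (mean over probe sets, log2 1.72). CAB2R, a light-harvesting protein, was bright at both stages, at 10132 and 6795. Of 15 measured photosynthesis genes 8 were higher and 1 was lower (median log2 ratio 1.21). Scaled to the poly-A spikes, 6 were higher and 2 lower, with a median of 0.16. The lower one on the deposited scale was CHLH, the subunit of magnesium chelatase at the start of chlorophyll synthesis, with 159 at stage 12 and 1173 at stage 9. The CHLH call depends on the probe set: the log2 ratio was -2.88 on the brightest, -0.32 as the mean over probe sets and 2.24 without cross-matching probe sets. CATA, a catalase, was 6.03-fold higher and APX8, a chloroplast ascorbate peroxidase, 7.61-fold higher. The pistil and ovule factors MADS13 and MADS21 were higher as well, MADS13 with 1190 at stage 12 and 109 at stage 9.

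Defence-type proteins that accumulate in floral tissue included some of the largest increases. CHT4, a chitinase, had 3869 at stage 12 and 12.0 at stage 9, at least 54.5-fold higher. CHIA4A, another chitinase, had 2870 and 16.4, and CHT2 had 2407 and 55.2 (mean over probe sets, log2 3.57). Of 10 measured genes named CHT or CHIA, 9 were higher and none was lower. GLU15, a glucanase gene by name and not necessarily one of defence, had 8212 at stage 12 and 203 at stage 9, 40.4-fold higher. CHIA1D was the brightest named gene of the stage 12 array at 17959. The list of chitinases and glucanases also held BGLU genes, which are named as beta-glucosidases, such as BGLU30. Of the 44 measured members of this mixed list, 20 were higher and 8 lower. Scaling to the poly-A spikes turned that balance to 16 higher and 20 lower. Pi21, whose loss gives resistance to rice blast, was 16.8-fold higher (log2 4.07, and 5.79 as the mean over probe sets). Among germin-like genes GER5 was at least 50.4-fold lower (49.4 and 3576) and GER6 12.1-fold higher (2713 and 225). GER1, GER2, GER3 and GER6 neighbour each other among the measured genes and were all higher.

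Diterpenoid genes were higher together. CPS4, CYP99A3, MAS, KS4 and CYP99A2, genes of the cluster that makes the antimicrobial momilactones, lie next to each other among the measured genes and all were called higher. CPS4, the cyclase of the first step, had 621 at stage 12 and 20.9 at stage 9, at least 8.74-fold higher, and CYP99A3, the member above the floor at both stages, had 540 and 83.0. CPS2, the cyclase that feeds the related phytocassanes, was at least 17.3-fold higher, and CYP701A8, a P450 of the same branch, had 2345 and 128. Of 25 measured genes of gibberellin and diterpenoid synthesis 12 were higher and 1 lower, with a median log2 ratio of 0.98. Scaled to the poly-A spikes, 9 of 24 were higher and 6 lower, with a median of 0.071. CPS1, the cyclase of the gibberellin branch, had 232 at RNAi stage 12 and 45.01 at stage 9, against 4120 and 38.6 in ZH11. With a floor 2 times as high, CPS1 was not called in RNAi (log2 0.71). The lower gene on the deposited scale was CYP714D1 (EUI), a P450 that inactivates gibberellin. CYP714D1 had 71.6 at RNAi stage 12 and 550 at RNAi stage 9, and 822 and 607 in ZH11.

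Among named genes above the floor on both RNAi arrays, the largest increase was that of ASMT3, an O-methyltransferase gene named for melatonin synthesis, with 3538 at stage 12 and 79.1 at stage 9, 44.8-fold higher. ASMT1 had 2151 and 68.0. CHS1, chalcone synthase, which makes the first flavonoid, had 7820 at RNAi stage 12 and 176 at RNAi stage 9, 44.5-fold higher, against 7438 and 3096 in ZH11. On this probe set the genotypes were close at stage 12 and apart at stage 9, but as the mean over probe sets CHS1 was only 2.31-fold higher in RNAi. CHI, the next flavonoid enzyme, was 2.71-fold higher, and 5 of 15 measured phenylpropanoid and flavonoid genes were higher and 1 lower, which scaling to the poly-A spikes turned to 2 higher and 4 lower.

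Nutrient and metal transport genes were mostly higher or within 2-fold. Of 47 measured genes of metal transport and metallothioneins 18 were higher and 3 lower, which scaling to the poly-A spikes turned to 10 higher and 15 lower. MT1A, a metallothionein, a small metal-binding protein, had 4002 at stage 12 and 93.9 at stage 9, 42.6-fold higher, and MT4A was at least 28.5-fold higher. NRAMP5, the root manganese importer, had 2006 and 304. Of 43 nitrogen, phosphate and potassium transport genes 12 were higher and 2 lower, which scaling to the poly-A spikes turned to 7 higher and 12 lower. AMT1, an ammonium transporter, was 13.6-fold higher (log2 3.76, and 1.92 as the mean over probe sets), and PHT1;8, a phosphate transporter, was 9.89-fold higher (log2 3.31, and 2.27 as that mean). Silicon channels LSI1 and LSI6 were higher too, LSI6 with 2709 at stage 12 and 555 at stage 9.

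Sugar genes exchanged members between the stages. Of 37 measured genes 12 were higher and 7 lower, beside 15% higher and 15.8% lower over all genes. The median was -0.26 although more members were higher than lower. Scaling to the poly-A spikes gave 9 higher and 19 lower, and to the hybridization controls 12 of each. The sucrose synthases SUS1 and SUS3 were lower, SUS1 with 1594 at stage 12 and 8658 at stage 9, while SUS4 had 1599 and 173. CIN1, a cell wall invertase, which splits sucrose outside the cell, had 2339 and 121, 19.4-fold higher. SUT1, a sucrose transporter, was 4.74-fold higher and SWEET4, a hexose carrier, 4.32-fold higher. SWEET15, a sucrose exporter, was below the floor at RNAi stage 12 (48.6, against 702 at stage 9), while ZH11 had 569 and 969. None of the 6 starch synthesis genes was called (4 were lower when scaled to the poly-A spikes), and 3 of 6 measured starch breakdown genes were higher (1 higher and 1 lower when scaled to the poly-A spikes), among them DPE2, a glucanotransferase of starch-derived maltose, at 4449 and 1654.

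Among calcium sensors, CML1 had 2148 at stage 12 and 86.0 at stage 9, 24.96-fold higher, and CML8 was at least 26.8-fold higher. Of 53 measured calmodulin, CBL and CIPK genes 10 were higher and 15 lower, while scaling to a common median gave 12 of each. The shares over all genes were 15% higher and 15.8% lower. Of 17 measured genes in the kinase family of the silenced gene, CPK7 was the higher one, and CDPK1 (also called CPK4) and OsCPK21 were the lower ones, whereas scaling to the poly-A spikes gave none higher and 10 lower. OsCPK21 itself was at least 2.90-fold lower at RNAi stage 12, against 1.40-fold higher in ZH11, and with a floor 2 times as high it was not called in RNAi (log2 -0.54). CML32 had 154 and 391.7 at RNAi stages 12 and 9, but 2687 and 35.4 in ZH11.

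Genes of the abscisic acid and dehydration list moved both ways. Of 87 measured genes 13 were higher and 23 lower, against 6 and 49 when scaled to the poly-A spikes. Over all genes 15% were higher and 15.8% lower on the deposited scale, so the higher share of this list was close to that of all genes. RAB21, a dehydrin that accumulates with abscisic acid, had 2464 at RNAi stage 12 and 222 at RNAi stage 9, 11.1-fold higher, against 175 and 190 in ZH11. SALT, a mannose-binding lectin induced by salt, was 20.2-fold higher, at 2597 and 128. DREB1B, a cold-response factor, was 4.28-fold lower and SAPK9, an abscisic acid kinase, 4.16-fold lower. Of 22 aquaporins 5 were higher and 5 lower, against 4 and 11 when scaled to the poly-A spikes. PIP1;3, a water channel, had 972 and 115 in RNAi, against 172 and 187 in ZH11. Heat shock proteins and factors counted 10 higher and 10 lower of 46, against 3 and 22 when scaled to the poly-A spikes. The aquaporin and heat shock counts also stand beside 15% higher and 15.8% lower over all genes.

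Jasmonate genes had more lower than higher members in RNAi and more higher than lower members in ZH11. JAZ proteins repress jasmonate responses and are themselves induced by the hormone. JAZ9 had 617 at RNAi stage 12 and 7313 at RNAi stage 9, 11.9-fold lower, against 3868 and 2508 in ZH11. JAZ10 had 1654 and 8258 in RNAi, against 1582 and 949 in ZH11. JAZ13 had 1121 and 5923 in RNAi, against 538 and 102 in ZH11. For these genes the RNAi stage 9 array held the highest signal of the 4. Of 13 measured JAZ genes 4 were lower and none higher in RNAi, and 6 were higher and none lower in ZH11. OPR1, of the oxophytodienoate reductase family, was 5.99-fold lower in RNAi and 2.40-fold higher in ZH11. BHLH148, a factor that binds JAZ proteins, had 799 and 3854 in RNAi, against 339 and 45.1 in ZH11. JAMYB, a jasmonate-induced MYB factor, was higher in both genotypes. Over the list of 30 measured genes, 2 were higher and 8 lower in RNAi, with a median of -0.40 (1 higher and 21 lower when scaled to the poly-A spikes), and 12 of 33 were higher and 1 lower in ZH11, with a median of 0.67.

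The stage ratios of the genotypes share no array, so they can be set side by side. ZH11 had 2807 genes higher (17.1%) and 2574 lower (15.7%) at stage 12, together 32.9% of its 16380 measured genes. Genes higher in both numbered 1640, which is 68.3% of the RNAi list and 58.4% of the ZH11 list. Genes lower in both numbered 1838, or 72.5% of the RNAi list and 71.4% of the ZH11 list. Across the 16628 genes above the floor on any array, which are not independent, the log2 stage ratios had a Pearson correlation of 0.745 and a Spearman correlation of 0.748.

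The overlap was uneven by direction and size. Of the 149 genes 16-fold or more higher in RNAi, 147 were also higher in ZH11. Of the 323 genes 16-fold or more higher in ZH11, 120 were higher in RNAi, 48 were within 2-fold, 7 were lower and 148 were below the floor at both RNAi stages, and their median RNAi log2 ratio was 0, beside 5.02 in ZH11. On the falling side, 138 of 144 genes 16-fold or more lower in RNAi were lower in ZH11, and 202 of 210 such genes of ZH11 were lower in RNAi. So the large increases of RNAi spikelets were nearly all seen in ZH11, whereas most of the large increases of ZH11 were not called in RNAi. Of the 1167 genes higher in ZH11 but not in RNAi, 729 stood 2-fold or more lower on RNAi stage 12 than on ZH11 stage 12. On RNAi stage 9, 130 stood 2-fold or more higher than on ZH11 stage 9, and 332 were under 2-fold between the genotypes at both stages. The choice of these genes by their stage calls itself favours such gaps, and no share over all genes stands beside the counts.

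**Figure D5:**
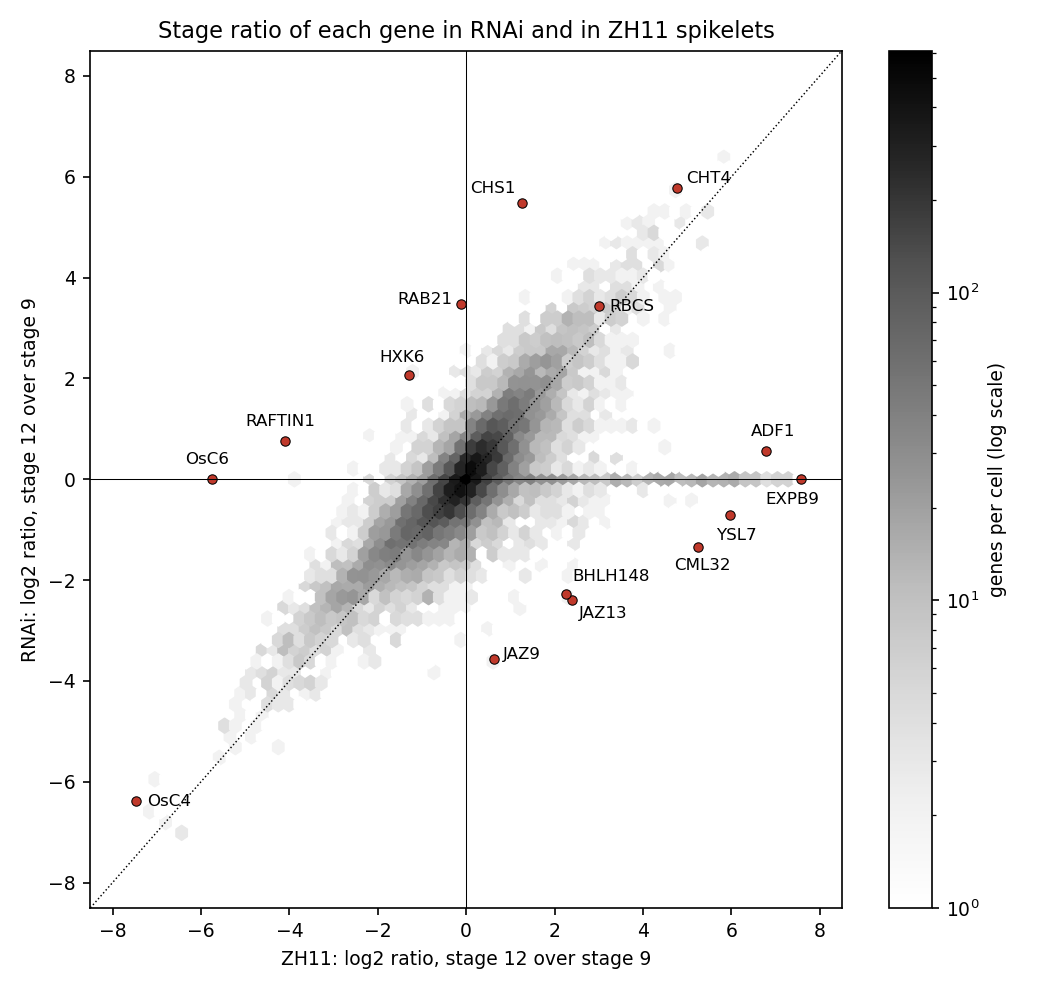
Log2 ratio of stage 12 over stage 9 for each gene in ZH11 (horizontal) and RNAi (vertical), as the number of genes per hexagon, over the 16628 genes above the floor on any array; the dotted line marks equal ratios. Most genes lie along the line (Pearson 0.745), a row at a vertical value of 0 holds genes at or below the floor at both RNAi stages, and JAZ9, JAZ13 and BHLH148 lie below the horizontal axis.

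The genes that set ZH11 most apart were bright on ZH11 stage 12 alone. Among them, EXPB9, EXPB10, ADF1, ADF6 and ADF9 are late pollen markers already read above. EXPB9 and EXPB10, pollen beta-expansins, which loosen the walls of stigma and style, had 56.4 and 14.4 at RNAi stage 12 and 51.8 and 14.4 at RNAi stage 9, against 13529 and 11378 at ZH11 stage 12. In ZH11 the stage 12 signal was at least 191-fold (EXPB9) and at least 160-fold (EXPB10) above stage 9, and RNAi gives no ratio. YSL7, of the metal-chelate transporter family, had 69.4 and 116 in RNAi and 8205 and 131 in ZH11. ADF1, an actin-severing protein, had 105 and 58.9 in RNAi and 7845 and 59.1 in ZH11. ADF6, ADF9, VLN4, NIFU1, BGLU38 and KAO were all below the floor at both RNAi stages and between 3790 and 5932 at ZH11 stage 12.

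At the other end stood genes whose ZH11 decline or level was not shared. Besides OsC6, RAFTIN1, CHS1 and RAB21, NIP4-1, an aquaporin-like gene, was below the floor at both RNAi stages and had 81.5 and 2244 in ZH11. CHS1 was called higher in both genotypes, and its large RNAi ratio was that of its brightest probe set, as given above. HXK6, a hexokinase gene (also listed as HXK7), had 559 at RNAi stage 12 and 132 at stage 9, against 1012 and 2492 in ZH11. CAD7 had 593 and 927 in RNAi, against 96.6 and 999 in ZH11. Genes called in either genotype numbered 6746. On the deposited scale the RNAi log2 ratio was lower than that of ZH11 by 1 or more for 1345 of them. It was higher by 1 or more for 862. Scaling to a common median and quantile normalization each lowered the first count and raised the second, which brought them much closer. Scaling to the poly-A spikes moved them further apart. Much of this imbalance therefore depends on the scaling, and its cause was not tested. A gap of 3 or more was seen for 366 genes on the lower side and for 32 on the higher side.

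Genes with no name but a locus number made up 15450 of the 17905, and some moved more than any named gene measured on both arrays. LOC4346934 had 12822 at RNAi stage 12 and 102 at stage 9, LOC9268371 had 9351 and 80.9, and LOC4329559 had 6857 and 87.4. On the falling side, LOC4325638 had 78.4 at stage 12 and 12508 at stage 9, LOC4351203 had 74.4 and 11731, and LOC4348122 had 74.3 and 11160. As the mean over probe sets the log2 ratio of LOC4346934 was 4.01, that of LOC4325638 -4.50 and that of LOC4351203 -3.42. LOC4348122 lies in a run of 5 neighbouring measured genes that were all lower, by log2 values of -3.54 to -7.23. Runs of at least 4 neighbouring measured genes called the same way numbered 14 for genes higher and 17 for genes lower in RNAi. They held 62 of the 2401 higher and 79 of the 2535 lower genes. With 15% of all measured genes higher and 15.8% lower, some runs arise without any clustering. Whether there were more than that was not tested. The brightest named genes of both RNAi arrays, by contrast, were within 2-fold for 10 of 12, such as MT2C, a metallothionein, with 16841 at stage 12 and 18228 at stage 9, and GOS2, a translation factor gene, with 16215 and 12399.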

How the data were processed

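Total RNA of rice spikelets was hybridised to the Affymetrix Rice Genome Array, 1 array per sample. The authors deposited 1 linear intensity for each probe set. The submitters' processing notes name MAS5, with neither version nor scaling target stated. The members and gene lists were chosen with earlier results of these data known. Of 57381 probe sets 187 were controls. The platform annotation gave 1 gene to 22436 probe sets, several to 95 and none to 34663, and names of 2455 of 17905 genes came from RefSeq (ASM3414082v1, for names and neighbours only). The probe set with the highest mean log2 intensity stood for a gene. Signals below 71 were raised to 71 and ratios were computed in Python 3 with pandas. With 1 array per group no test was run, and precision is limited by that number. Named genes were the 15 largest measured changes each way, the 12 brightest seen at 1 stage only, the 12 most different from ZH11 each way, the 8 brightest, 3 unnamed loci each way called list members and up to 4 others of each list; the text gives a selection of these. From 44 lists, matched by patterns on names, 82 members whose other names denote another protein were removed, and lists of late pollen and of pistil genes were dropped because their members stand in other lists or in the markers. Ratios were checked on simulated arrays. Alternatives were scaling, floor, pseudocount, probe set choice and threshold. Promoter motifs were not analysed here.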

Additional observations from a re-analysis of the deposited data

Results flagged for a closer look

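Of the reporter probe sets, which no comparison uses, 2 had signals far above the other 62. The brighter had 2922.64 on RNAi stage 12 and 840.54 on RNAi stage 9, against 7544.11 on ZH11 stage 12 and 10742.4 on ZH11 stage 9. The dimmer had 1317.61 and 379.97 in RNAi, against 5405.63 and 5522.81 in ZH11. On the arrays titled RNAi both were brighter at stage 12 than at stage 9, by 3.48-fold and 3.47-fold, while in ZH11 the ratios were 0.702 and 0.979.

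Genes called in opposite directions in the genotypes numbered 93, of which 16 have a name, and none of these differences was tested. Lower in RNAi and higher in ZH11 were 79 genes. Those with a name, with the RNAi log2 stage ratio minus that of ZH11, were CML32 at -6.59, the MAP kinase gene MPK17 at -5.22, JAZ13 at -4.80, JAZ11 at -4.55, BHLH148 at -4.53 and OPR1 at -3.85. The heat shock gene HSP24.1 stood at -3.11, AT1 at -3.10, the COBRA-like gene BC1L9 at -3.09, PP2C15 at -2.89, TPP2 (LOC4349333) at -2.69, PP2C75 at -2.40 and PP2C13 at -2.29. Higher in RNAi and lower in ZH11 were 14 genes, those with a name being AT4 at 2.59, ERG1 at 2.88 and HXK6 at 3.38. Several RNAi calls lie near the threshold. AT4 was not called with a pseudocount of 32 (log2 0.998), nor ERG1 with a floor 2 times as high (0.85), nor either when scaled to the poly-A spikes (0.0067 and 0.36). MPK17, HSP24.1 and BC1L9 were not called with a common median (-0.91, -0.94 and -0.90), and PP2C75 changed sign as the mean over probe sets (0.20).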

How the results depend on the processing

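The scalings to spike and hybridization controls were chosen after seeing the data. With a common median, quantile normalization, a floor 2 times as high, a pseudocount of 32, the mean over probe sets or no cross-matching probe sets, the RNAi counts lay between 2008 and 2732 genes higher and between 2259 and 2535 lower. A 4-fold threshold left 930 genes higher and 958 lower, and 1326 probe sets higher and 1561 lower. Scaling to the poly-A spikes gave 987 genes higher and 8083 lower, 1449 probe sets higher and 16699 lower, 896 genes higher in both genotypes, and RNAi minus ZH11 differences of -1 or less for 6960 genes and 1 or more for 158. It left 4 lists with more higher than lower members. It turned list medians negative for cytokinin and ethylene (-0.60), floral MADS-box (-0.34), MYB (-0.71), bZIP (-0.84) and peroxidases (-0.89). The same held for the mixed list of chitinases, glucanases and BGLU genes (-0.23), phenylpropanoids (-0.035), metals (-0.29) and nitrogen, phosphate and potassium transport (-0.50). Scaling to hybridization controls gave 6848 probe sets lower and turned the medians of bZIP (-0.047) and peroxidases (-0.15). Quantile normalization moved the abscisic acid median to 0.0047. Of the 68 called genes named by rule none changed sign, which the 2-fold threshold nearly ensures for the scalings. Scaling to the poly-A spikes ended 3 of these calls. The mean over probe sets moved 11 by over 1.5-fold and ended 1 call, that of CSLF6. A floor 2 times as high moved 37, since more signals are raised to it. Without cross-matching probe sets the log2 ratios of JAZ10 and PHT1;8 were -3.23 and 4.13, and the CATA ratio was also larger. The cause was not tested. No paired analysis was possible because each group has 1 array and no replicate number is shared, and no replicate could be left out.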

Other observations

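None of 22 cytosolic ribosomal protein genes and none of 5 histone genes was called, with medians of -0.29 for each. Scaled to the poly-A spikes, 21 ribosomal protein genes and 4 histone genes were lower, with medians of -1.33 for each. AOX1, an alternative oxidase of mitochondria, was the called gene of 16 in the respiration list (10 were lower when scaled to the poly-A spikes), with 344 at stage 12 and 1224 at stage 9, against 788 and 815 in ZH11. MYB4, a cold-response factor, had 1555 and 5198 in RNAi and 1021 and 865 in ZH11.
ACA7, a calcium ATPase, had 390 and 1440 in RNAi and 209 and 219 in ZH11. MGD3, which makes galactolipids, had 171 and 2315 in RNAi and 1056 and 1745 in ZH11. In a run of 5 neighbouring measured genes from LOC4325301 to LOC4326921 all were lower in RNAi, by log2 values of -1.55 to -3.57, with a median of 0.81 in ZH11.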
